A study of Mus musculus with 16 samples.

Results

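The genes described here code for proteins that decide where introns are cut out of pre-mRNA: the serine/arginine-rich (SR) proteins, the heterogeneous nuclear ribonucleoproteins (hnRNPs) and the SF3A and SF3B subunits of the U2 small nuclear ribonucleoprotein (snRNP). They were taken by symbol, as every gene named Srsf or Sf3a/Sf3b with a number, or Hnrnp, without opposite-strand and pseudogene symbols. This gave 40 of the 55359 genes in the table: 11 SR genes, 20 hnRNP genes and 9 SF3 genes. All 40 passed the filter on low values, an FPKM (counts per kilobase of exon and 1e+06 counts) of at least 0.5 in at least 4 of the 16 libraries.

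RNA-seq libraries came from C57BL/6JNarl mice, from a tissue that the sample labels call brain and the study's design text calls hippocampus, 4 for each of 4 groups: chronic-stressed males, non-stressed males, chronic-stressed females and non-stressed females. All groups are of 1 inbred strain with no added allele; age and the form of stress are not given in the sources used here. The pooling size is 3 in every library except those of chronic-stressed males, where it is 2, 2, 1 and 2, so most libraries are pools and animals were not measured singly. The labels do not say whether libraries of a group came from separate cohorts, so p-values measure the spread between these libraries.

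SR proteins bind exonic enhancers through an RNA recognition motif and recruit the spliceosome through a tail rich in arginine and serine that kinases phosphorylate. Many hnRNPs bind the same transcripts and repress nearby splice sites, so the balance between both families sets which exons are kept. SF3A and SF3B sit in the U2 snRNP and hold it on the intron's branch site, a step that nearly every intron needs. Neurons use alternative splicing heavily, and many SR and hnRNP transcripts carry "poison" exons through which their proteins limit their own mRNA; counts per gene, as here, do not separate such isoforms.

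Library totals were 18.6 to 32.5 M counts (M, 1e+06) in chronic-stressed males, 15.2 to 19.5 M in non-stressed males, 18.2 to 28.6 M in chronic-stressed females and 15.8 to 20.1 M in non-stressed females. All 10 markers of hippocampal excitatory neurons were detected in every group, and their summed FPKM overlapped between stressed and non-stressed libraries of each sex. Summed markers of some other cell types did separate, while those of oligodendrocytes and blood overlapped in both sexes. For 5 endothelial markers the sums did not overlap: 19.95 to 26.6 in chronic-stressed males against 32.4 to 35.0 in non-stressed males, and 23.5 to 26.5 in chronic-stressed females against 31.3 to 48.7 in non-stressed females. For 5 astrocyte markers the sums were higher under stress, at 337 to 366 FPKM in chronic-stressed males against 315 to 328 in non-stressed males, and 339.6 to 395 in chronic-stressed females against 289.7 to 336 in non-stressed females. For 5 microglia markers they were lower in chronic-stressed males, at 75.3 to 79.8 FPKM against 92.5 to 104 in non-stressed males, and overlapped in females. Summed choroid plexus markers ran from 1168 to 6492 FPKM, with overlapping ranges in all groups. Genes with over 6 kb of exon took 43.3 to 44.2% of counts in chronic-stressed males, 35.6 to 37.6% in non-stressed males, 43.5 to 44.0% in chronic-stressed females and 31.8 to 40.1% in non-stressed females. Non-stressed female libraries 1 and 4 stood apart from the other two of their group, with 33.8 and 31.8% of counts in such genes against 36.9 and 40.1%. The mitochondrial gene mt-Nd6, which lies on the strand opposite most mitochondrial genes, had 164 to 203 FPKM in chronic-stressed males against 2646 to 3889 in non-stressed males, and 137 to 206 in chronic-stressed females against 2114 to 4497 in non-stressed females. The labels give no preparation batch, so a difference in library preparation between the conditions, if there was one, cannot be told apart from stress in any of the fold changes given here. The part of these differences in the results was not tested, apart from the fits named beside them.

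Chronic stress was set against no stress within each sex. In males 4 of the 40 genes rose and 14 fell, by edgeR's quasi-likelihood test with p adjusted by the Benjamini-Hochberg method across 17569 tested genes and a threshold of 0.05. Over all tested genes, 39.7% were called in males, 18.5% higher and 21.2% lower, so the share of the 40 that fell was above the background and the share that rose was below it. In females 4 rose and 23 fell, against 49.3% of all genes called, 22.1% higher and 27.3% lower. The median log2 fold change of the 40 was -0.16 in males and -0.28 in females, beside -0.03 in each sex over all genes. The male median was -0.09 without non-stressed male library 1, and the female median -0.19 without non-stressed female library 4 and -0.11 without libraries 1 and 4. On the TPM scale described below the medians were 0.08 in males and -0.02 in females, beside 0.19 and 0.22 over all genes. In bulk tissue, fewer cells of a type and less RNA per cell cannot be told apart.

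The families divided differently. Over all genes 18.5% were called higher and 21.2% lower in males, and 22.1% and 27.3% in females. On the TPM scale described below these shares were 34.7% and 11.4% in males and 40.7% and 14.5% in females. Counts of a family near these shares are no more than the background. Among SR genes 1 of 11 rose and 3 (27.3%) fell in males, and 1 rose and 5 fell in females. Among 20 hnRNP genes none rose and 9 fell in males, and none rose and 15 fell in females, whereas on the TPM scale described below 2 rose (Hnrnpu and Hnrnpul2) and 4 fell in males, and 3 rose (these and Hnrnpul1) and 6 fell in females. Of 9 SF3 genes, 3 rose and 2 (22.2%) fell in males, and 3 rose and 3 (33.3%) fell in females, so the falls were near the background. On TPM 5 rose and 1 fell in males, and 4 rose and 2 fell in females. SR genes on TPM had 3 higher and 2 lower in each sex. The 4 genes that rose were called in both sexes: Srsf4, Sf3b1, Sf3a1 and Sf3b3. A further 13 fell in both sexes, 1 (Srsf12) was called lower in males alone, 10 in females alone, and 12 were called in neither. Of all 17569 tested genes, 2790 were called higher in both sexes and 3238 lower in both. All 10 genes called in females alone lost the call when non-stressed female libraries 1 and 4 were left out. They are Hnrnpa2b1, Hnrnph1, Hnrnpk, Hnrnpll, Hnrnpm, Hnrnpr, Srsf1, Srsf3, Srsf6 and Sf3a3. Hnrnpdl, Hnrnph2 and Sf3a1 lost theirs in females too. Of the 27 female calls 14 were then left, 3 higher and 11 lower, and Sf3b4 gained a call (-0.36), beside 15.9% of all genes higher and 16% lower in that fit.

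**Figure D1:**
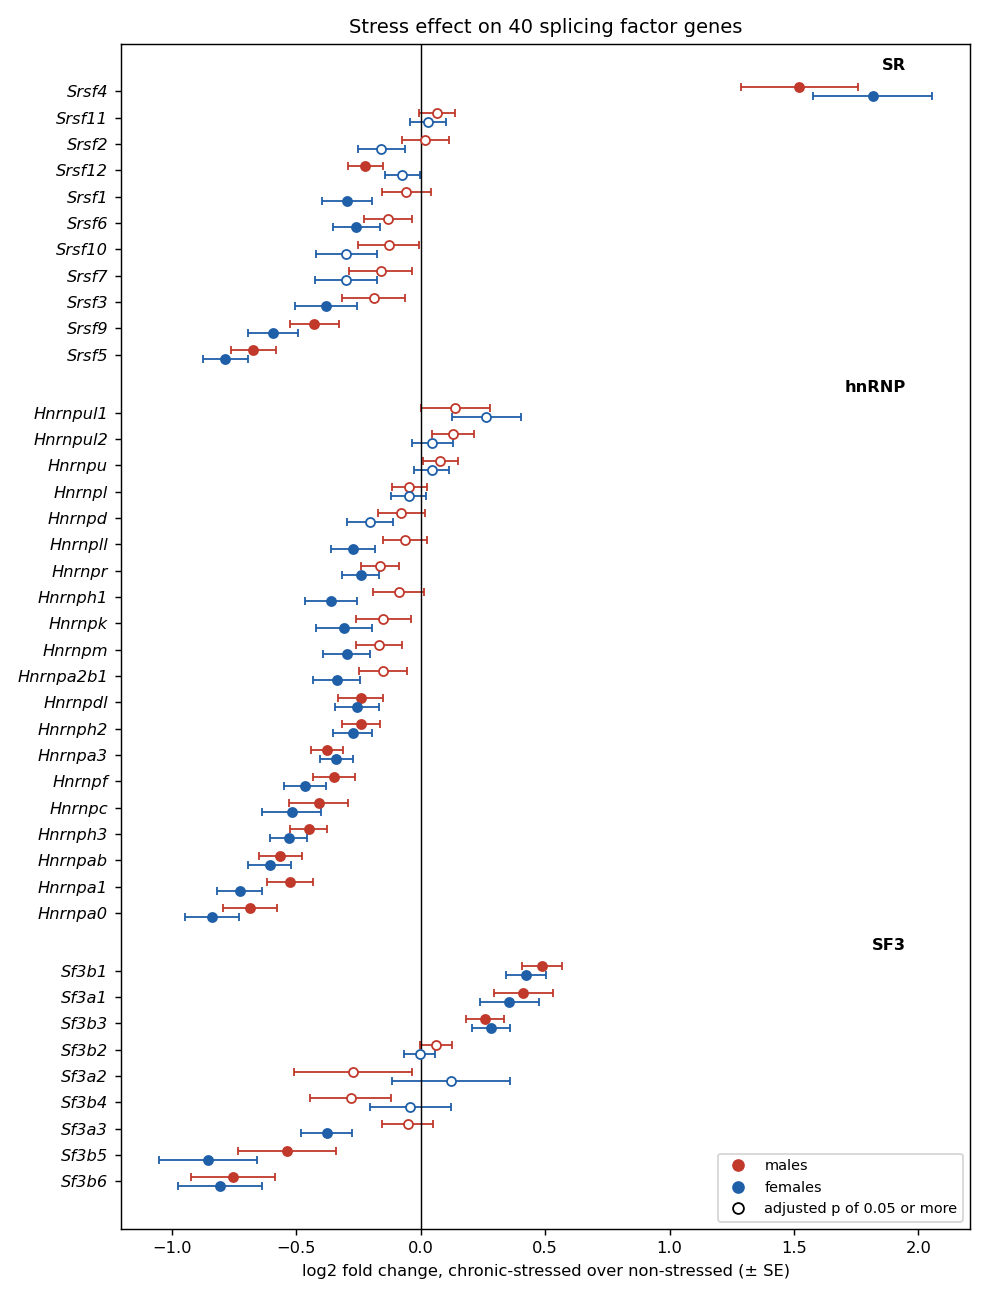
Log2 fold change of chronic-stressed over non-stressed libraries for the 40 genes, by family, in males (red) and females (blue); bars are SE, n = 4 per group, and filled points passed an adjusted p of 0.05. Srsf4 lies alone at the right with 1.52 in males and 1.82 in females, most hnRNP points lie left of 0, and the SF3 genes spread to both sides.

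Separation of single libraries gave a like picture. In males every stressed FPKM value lay above every non-stressed value for 4 of the 40 genes and below for 16, where 20.3% and 24.5% of all tested genes did so. In females the stressed values lay above for 3 genes and below for 16, against 19.3% and 21.5% of all genes.

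The scaling of the libraries moved the split between rises and falls. With TPM, which divides by the length-weighted sum of each library, the median of all genes moved by about 0.2: it was 0.19 in males and 0.22 in females with limma on log2 TPM (pseudocount 0.5), against -0.03 and -0.01 with limma on log2 FPKM. On the TPM scale 10 of the 40 rose and 7 fell in males, and 10 rose and 10 fell in females. Over all genes 34.7% rose and 11.4% fell in males on TPM, and 40.7% rose and 14.5% fell in females, so the share of the 40 that rose was below that of all genes. Over all genes the rises made up 75.3% of calls in males on TPM against 44.3% on FPKM, and 73.8% against 46.5% in females. Directions given here are therefore those of edgeR's TMM scaling, and a change is best read against the median of all genes. On TPM the male calls of Hnrnpa3, Hnrnpc, Hnrnpdl, Hnrnpf, Hnrnph2, Sf3b5 and Srsf12 were lost, as were the female calls of Hnrnpa3, Hnrnpdl, Hnrnph2 and the 10 genes called in females alone. With the trend with exonic length removed, the male calls of Hnrnpdl, Hnrnpf, Hnrnph2, Sf3b1, Sf3b3, Sf3b5, Srsf9 and Srsf12 and the female calls of Sf3a1, Sf3a3, Sf3b1, Sf3b3 and Srsf9 were lost. A set of 7 genes kept its direction and its call in both sexes under each of the 31 or 32 fits that could be made for it. These fits include TPM, removal of the length trend and leaving out each library. Of the 7, Srsf4 rose, and Srsf5, Hnrnpa0, Hnrnpa1, Hnrnpab, Hnrnph3 and Sf3b6 fell. The share of all genes that pass the same rule was not counted. The fits reuse the same 16 libraries, and 16 of them only leave out 1 library, so they are not independent.

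**Figure D2:**
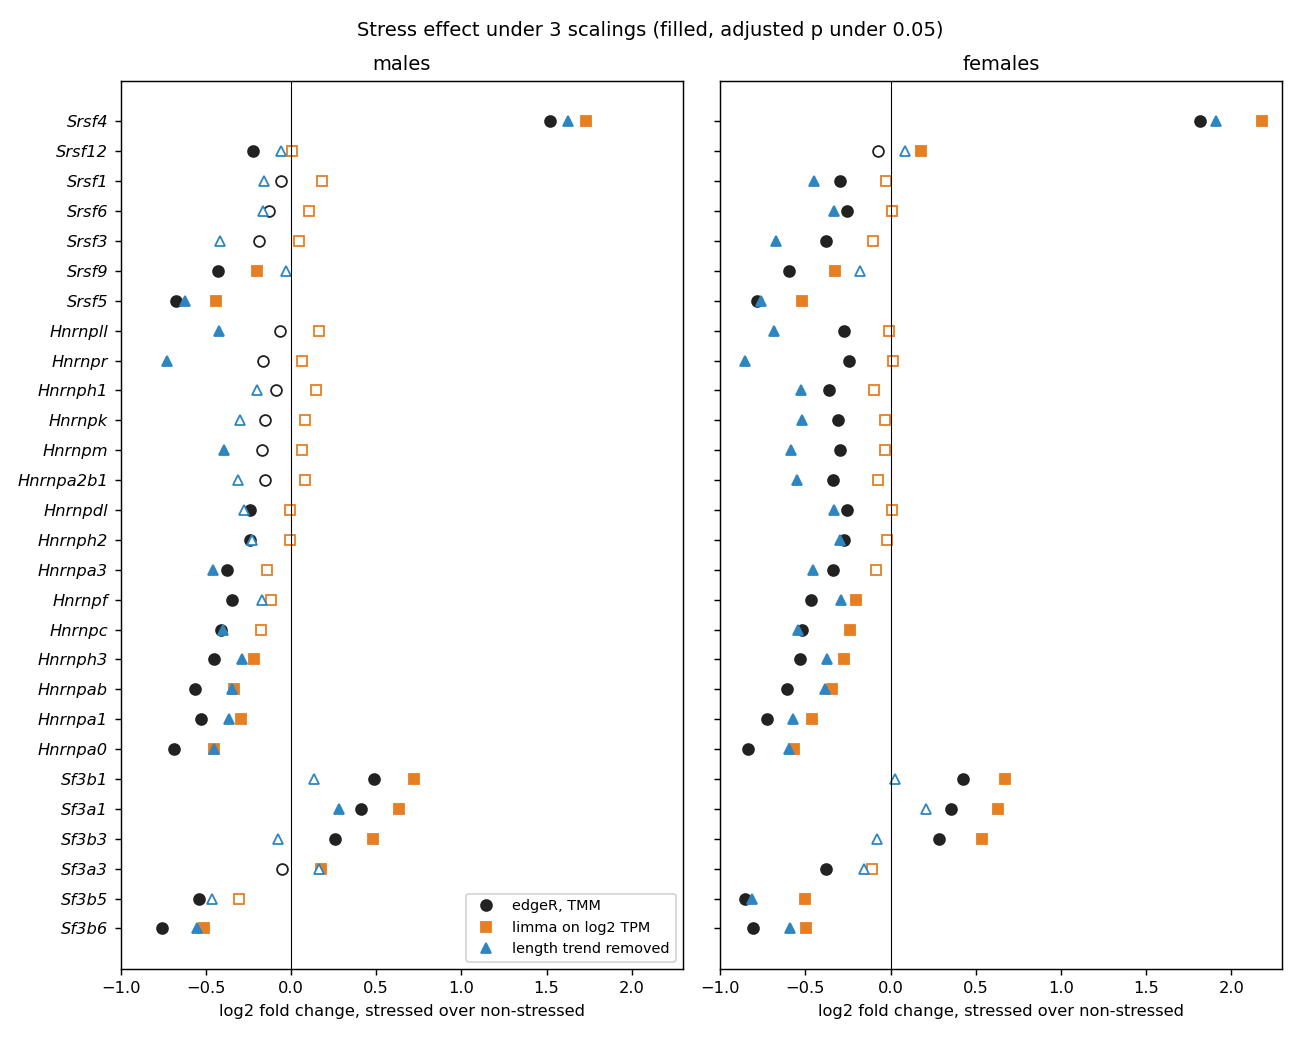
Log2 fold change of stressed over non-stressed libraries for the 28 genes called in either sex, with edgeR and TMM scaling (black circles), limma on log2 TPM (orange squares) and edgeR after removal of the trend with exonic length (blue triangles); filled symbols passed an adjusted p of 0.05. TPM moves every gene to the right, while removal of the length trend takes Sf3b1 to 0.14 in males and 0.03 in females and leaves Srsf4 at 1.63 and 1.91.

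Promoter sequence is shown for 5 genes that the results turn on: 2 that rose (Srsf4, Sf3b1) and 3 that fell, 1 from each family (Srsf5, Hnrnpa0, Sf3b6). Each window runs from 250 bases before to 50 after a RefSeq gene start in the mouse build GRCm38.p6, which is not the build of the count table (GRCm39), 5′ to 3′ on the gene's strand. Srsf4 is at chr4:131873387-131873686 (+ strand, the first of 3 listed starts), Sf3b1 at chr1:55027429-55027728 (- strand), Srsf5 at chr12:80945249-80945548 (+ strand), Hnrnpa0 at chr13:58128507-58128806 (- strand) and Sf3b6 at chr12:4817358-4817657 (+ strand). Capitals mark matches, on either strand, to GGGCGG (the SP/KLF box), CCGGAAG (ETS factors) and CCAAT (NF-Y); matches may share bases.
Srsf4: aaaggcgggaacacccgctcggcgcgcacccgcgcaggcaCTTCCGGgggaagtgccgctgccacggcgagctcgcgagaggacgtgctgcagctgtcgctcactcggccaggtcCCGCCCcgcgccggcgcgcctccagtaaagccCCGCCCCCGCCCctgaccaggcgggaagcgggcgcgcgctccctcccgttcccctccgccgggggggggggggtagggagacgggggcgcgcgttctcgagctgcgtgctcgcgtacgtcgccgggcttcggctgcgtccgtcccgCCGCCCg
Sf3b1: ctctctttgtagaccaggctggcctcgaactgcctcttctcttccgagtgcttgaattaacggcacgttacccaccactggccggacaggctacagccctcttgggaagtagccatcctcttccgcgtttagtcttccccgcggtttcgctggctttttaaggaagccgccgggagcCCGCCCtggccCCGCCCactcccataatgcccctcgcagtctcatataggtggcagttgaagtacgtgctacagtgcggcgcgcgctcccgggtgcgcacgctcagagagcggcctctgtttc
Srsf5: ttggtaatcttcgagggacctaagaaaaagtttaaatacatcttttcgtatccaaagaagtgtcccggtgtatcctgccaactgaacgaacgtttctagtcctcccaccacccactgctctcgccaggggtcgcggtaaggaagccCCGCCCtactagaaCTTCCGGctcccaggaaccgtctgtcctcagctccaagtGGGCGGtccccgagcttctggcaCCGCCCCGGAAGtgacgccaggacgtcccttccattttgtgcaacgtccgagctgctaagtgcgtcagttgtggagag
Hnrnpa0: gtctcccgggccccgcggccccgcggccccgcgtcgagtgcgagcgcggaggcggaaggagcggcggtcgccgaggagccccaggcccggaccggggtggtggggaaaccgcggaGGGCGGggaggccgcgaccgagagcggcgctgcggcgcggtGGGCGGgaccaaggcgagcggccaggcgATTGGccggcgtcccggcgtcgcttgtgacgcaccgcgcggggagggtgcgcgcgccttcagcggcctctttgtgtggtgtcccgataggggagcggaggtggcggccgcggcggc
Sf3b6: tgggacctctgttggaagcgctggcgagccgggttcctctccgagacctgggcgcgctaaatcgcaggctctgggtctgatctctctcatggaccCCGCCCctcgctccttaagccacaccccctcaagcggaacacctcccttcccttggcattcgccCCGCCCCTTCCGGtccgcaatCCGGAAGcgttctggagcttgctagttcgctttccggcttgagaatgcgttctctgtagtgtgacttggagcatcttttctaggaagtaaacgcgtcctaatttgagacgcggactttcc

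The windows of Srsf4 and Sf3b1 hold the SP/KLF box, as do those of Srsf5, Hnrnpa0 and Sf3b6, so this motif does not divide the genes that rose from those that fell. Windows were found for 36 of the 40 genes (49 windows, since some genes have several starts). GGGCGG was in 77.6% of the 49 windows against 35.7% of all 32851 promoter windows, and CCGGAAG in 34.7% against 8.86%. The 49 windows are also richer in G and C, with a median of 65.0% against 52.7%. CCAAT was in 49.0% against 37.4%, TATAAA (the TATA box) in 10.2% against 13.6%, GCGCATGCG (NRF1) in 6.12% against 1.75% and AAGATGGCG (YY1) in 2.04% against 1.40%. TGACGTCA (CREB/ATF) was in 0 of the 49 windows and in 1.79% of all. Among genes with a window, GGGCGG was in 3 of the 4 that rose in both sexes and in 11 of 12 that fell in both; CCGGAAG was in 3 of 4 and in 3 of 12. These counts describe letters in a window, and no binding was measured.

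Among the SR genes, Srsf4 (SRp75, an SR protein with a long arginine/serine tail; ENSMUSG00000028911, GRCm39 chr4:131600928-131629017, + strand) changed most. It had 16.3, 15.4, 17.4 and 17.2 FPKM in chronic-stressed males, against 4.96, 5.41, 6.32 and 6.56 in non-stressed males. It had 15.5, 16.5, 15.99 and 16.5 FPKM in chronic-stressed females, against 3.61, 6.37, 6.41 and 1.88 in non-stressed females. No stressed library overlapped a non-stressed one in either sex. The log2 fold change was 1.52 ± 0.24 in males (SE; edgeR adjusted p = 1.04e-04) and 1.82 ± 0.24 in females (adjusted p = 2.17e-05), a ratio of 2.87 and 3.52. The locus holds a second gene on the same strand, A930004J17Rik, wholly inside the interval of Srsf4, with 1.84 to 2.40 FPKM in chronic-stressed males against 0.32 to 0.46 in non-stressed males, and 1.77 to 2.38 in chronic-stressed females against 0 to 1.11 in non-stressed females. How counts were split between these overlapping genes is not stated, and which exons of Srsf4 carried the added reads was not measured.

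Srsf5 (SRp40, which binds exonic enhancers; ENSMUSG00000021134, GRCm39 chr12:80992278-80997281, + strand) was the SR gene with the highest FPKM and fell. It had 82.03, 74.2, 71.2 and 76.3 FPKM in chronic-stressed males, against 133, 118, 116 and 122 in non-stressed males. Chronic-stressed females had 79.95, 80.3, 77.04 and 75.5 FPKM, against 147, 114, 123 and 153 in non-stressed females. The groups did not overlap in either sex. It fell by 0.67 ± 0.09 on the log2 scale in males (SE; edgeR adjusted p = 2.71e-05) and by 0.79 ± 0.09 in females (adjusted p = 5.74e-06). Srsf4 and Srsf5, members of 1 family with similar domains, thus moved in opposite directions in the same libraries.

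Srsf9 (SRp30c, a short SR protein) fell as well. It had 26.9, 24.9, 27.8 and 27.7 FPKM in chronic-stressed males, against 38.4, 33.6, 37.2 and 36.4 in non-stressed males, and the groups did not overlap. Chronic-stressed females had 25.7, 27.1, 27.9 and 27.4 FPKM, against 41.5, 36.5, 34.9 and 49.7 in non-stressed females, again without overlap. The log2 fold change was -0.43 ± 0.10 in males (SE; edgeR adjusted p = 0.00274) and -0.59 ± 0.10 in females (adjusted p = 1.78e-04). Srsf9 has the shortest exonic length of the 40 (1653 bases), and with the length trend removed its log2 fold change was -0.03 in males and -0.18 in females, no longer past the threshold. Without non-stressed female libraries 1 and 4 it was -0.37 in females and still called.

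Srsf3 (SRp20, the smallest SR protein, also an mRNA export adaptor) was called in females alone. In chronic-stressed females it had 18.1, 18.03, 17.6 and 16.04 FPKM, against 24.4, 19.2, 18.3 and 28.6 in non-stressed females, where libraries 1 and 4 were the highest. The female log2 fold change was -0.38 ± 0.13 (SE; edgeR adjusted p = 0.0194) and -0.08 without these libraries (adjusted p = 0.559); the call was also lost on leaving out either of them or chronic-stressed female library 4. In chronic-stressed males it had 17.8, 17.5, 15.6 and 16.03 FPKM, against 23.3, 18.9, 17.5 and 17.3 in non-stressed males, with overlap (adjusted p = 0.242).

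Srsf2 (SC35, the protein that marks nuclear speckles) and Srsf11 (p54, which with Srrm4 takes part in neuronal microexon splicing) had the highest male log2 fold changes of the SR genes after Srsf4 and were called in neither sex. Srsf2 had 50.5, 49.6, 48.1 and 50.1 FPKM in chronic-stressed males, against 55.3, 46.4, 47.5 and 48.1 in non-stressed males (adjusted p = 0.889, edgeR). In chronic-stressed females Srsf2 had 53.5, 51.9, 50.04 and 48.5 FPKM, against 60.2, 50.4, 49.1 and 67.3 in non-stressed females (adjusted p = 0.168, edgeR). Both pairs of groups overlapped. Srsf11 had 25.8, 25.7, 25.2 and 25.1 FPKM in chronic-stressed males, against 28.2, 23.2, 22.4 and 24.3 in non-stressed males (adjusted p = 0.4896, edgeR). Chronic-stressed females had 27.5, 24.9, 24.8 and 23.5 FPKM of Srsf11, against 24.5, 24.1, 25.3 and 24.5 in non-stressed females (adjusted p = 0.759, edgeR). These values also overlapped. On the TPM scale Srsf11 was called higher in both sexes and Srsf2 in males. Over all fits the lowest value of Srsf11 was -0.18 in males and -0.26 in females, and that of Srsf2 was -0.03 and -0.21.

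The other SR genes were closer to the threshold. Srsf1 (SF2/ASF, which helps the U1 snRNP to the 5′ splice site) had a female log2 fold change of -0.30 ± 0.10 (SE; edgeR adjusted p = 0.0224) and Srsf6 (SRp55) one of -0.26 ± 0.10 (adjusted p = 0.0342). The call of Srsf1 was lost without chronic-stressed female library 4 or non-stressed female library 1 or 4, and that of Srsf6 without any 1 chronic-stressed female library or non-stressed female library 1 or 4. Srsf12 (SRrp35, a relative of Srsf10) fell in males, by 0.22 ± 0.07 on the log2 scale (SE, edgeR adjusted p = 0.0179), and lost the call without non-stressed male library 1 or 2. On the TPM scale Srsf12 was 0.01 in males. In females it was called higher there (0.18), beside a median of 0.22 over all genes. Srsf7 (9G8, the SR protein with a zinc knuckle) and Srsf10 (SRp38, a repressor of splicing when dephosphorylated in heat shock) were called in neither sex, with female adjusted p of 0.0559 and 0.0514 by edgeR.

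**Figure D3:**
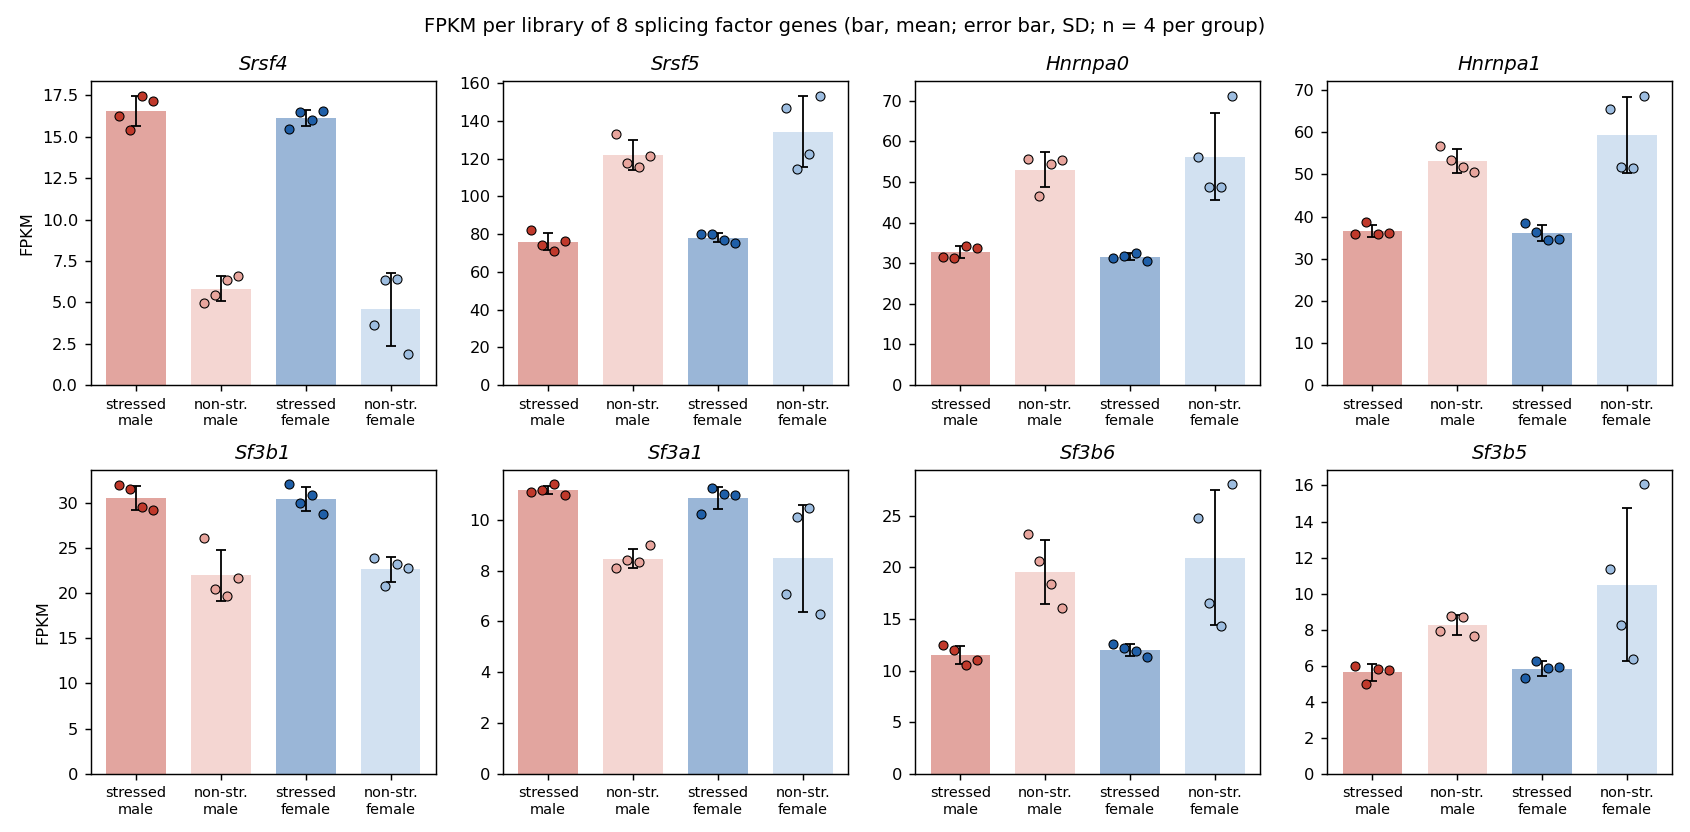
FPKM in each library (points) of 8 genes, with the mean (bar) and SD (error bar) of 4 libraries per group; stressed groups stand left of their non-stressed groups. Stressed libraries lie together at 15.4 to 17.5 FPKM for Srsf4 and at 10.5 to 12.6 FPKM for Sf3b6, while non-stressed females spread widely.

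Among the hnRNP genes, Hnrnpa0, Hnrnpa1 and Hnrnpab fell most in each sex. Hnrnpa0 (a single-exon gene whose protein binds AU-rich elements; ENSMUSG00000007836, GRCm39 chr13:58273693-58276370, - strand) had 31.5, 31.3, 34.1 and 33.8 FPKM in chronic-stressed males, against 55.6, 46.5, 54.4 and 55.5 in non-stressed males. Chronic-stressed females had 31.2, 31.8, 32.6 and 30.6 FPKM, against 56.2, 48.7, 48.9 and 71.3 in non-stressed females. The groups did not overlap. The log2 fold change was -0.69 ± 0.11 in males (SE; edgeR adjusted p = 1.34e-04) and -0.84 ± 0.11 in females (adjusted p = 1.99e-05). No annotated gene lies within 5 kb on its opposite strand.

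Hnrnpa1 (a splicing repressor that binds UAGGG-like silencers and shuttles to the cytoplasm) had 35.9, 38.7, 35.8 and 36.1 FPKM in chronic-stressed males, against 56.9, 53.5, 51.8 and 50.5 in non-stressed males. In chronic-stressed females it had 38.5, 36.4, 34.4 and 34.6 FPKM, against 65.6, 51.9, 51.5 and 68.7 in non-stressed females. All stressed libraries lay below all non-stressed libraries of their sex. Hnrnpa1 fell by 0.53 ± 0.09 on the log2 scale in males (SE; edgeR adjusted p = 3.05e-04) and by 0.73 ± 0.09 in females (adjusted p = 1.53e-05). Hnrnpa1 has processed pseudogenes of near-identical sequence, and reads shared with such copies may be counted to either.

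Hnrnpab (CBF-A, which takes part in dendritic mRNA transport) had 34.4, 33.96, 35.2 and 36.6 FPKM in chronic-stressed males, against 52.6, 53.1, 50.3 and 52.96 in non-stressed males. Chronic-stressed females had 33.98, 36.4, 38.9 and 36.5 FPKM, against 57.7, 49.6, 49.2 and 64.8 in non-stressed females. Neither sex showed overlap, and the log2 fold change was -0.56 ± 0.09 in males (SE; edgeR adjusted p = 9.20e-05) and -0.61 ± 0.09 in females (adjusted p = 4.44e-05). The opposite-strand gene Phykpl, which overlaps it, was at a mean of 0.750 FPKM in chronic-stressed males and 1.16 FPKM in non-stressed males, and at 0.798 FPKM in chronic-stressed females and 1.07 FPKM in non-stressed females.

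Hnrnpa2b1 (a dendritic RNA trafficking factor that binds UAG-containing elements) had the highest FPKM of all hnRNP genes and was called in females alone. It had 80.6, 72.7, 74.7 and 73.9 FPKM in chronic-stressed males, against 94.2, 84.2, 75.6 and 84.2 in non-stressed males, with overlap (edgeR adjusted p = 0.214). Chronic-stressed females had 76.8, 76.8, 74.9 and 69.8 FPKM, against 104, 78.6, 87.04 and 107 in non-stressed females, without overlap. The female log2 fold change was -0.34 ± 0.10 (SE; edgeR adjusted p = 0.008003), and -0.12 without non-stressed libraries 1 and 4 (adjusted p = 0.253). Hnrnpa3, also of the A/B group, fell in both sexes, to a mean of 18.3 ± 0.38 FPKM in chronic-stressed males against 23.9 ± 2.3 FPKM in non-stressed males (SD, n = 4 each; log2 fold change -0.38 ± 0.06, edgeR adjusted p = 2.67e-04) and to 18.3 ± 0.58 FPKM in chronic-stressed females against 23.1 ± 0.67 FPKM in non-stressed females (-0.34 ± 0.06, adjusted p = 5.46e-04). On TPM Hnrnpa3 was at -0.14 in males and -0.09 in females, not called.

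Of the hnRNPs that bind runs of G, Hnrnph3, Hnrnpf and Hnrnph2 also fell in both sexes. Hnrnph3 had a log2 fold change of -0.45 ± 0.08 in males (SE; edgeR adjusted p = 2.05e-04) and -0.53 ± 0.08 in females (adjusted p = 4.35e-05), with a range of 16.7 to 16.8 FPKM in chronic-stressed males against 21.6 to 26.1 FPKM in non-stressed males. Hnrnpf was at -0.35 ± 0.08 in males and -0.47 ± 0.08 in females (adjusted p = 0.00346 and 3.22e-04). The male value of Hnrnpf was -0.12 on TPM and -0.17 with the length trend removed, and neither was called. Hnrnph2, on the X chromosome, was at -0.24 ± 0.08 in males and -0.27 ± 0.08 in females (edgeR adjusted p = 0.02098 and 0.00795). On TPM it was at -0.01 and -0.02, not called. Hnrnph1 was called in females alone (-0.36 ± 0.10, edgeR adjusted p = 0.00923) and was at -0.09 in males (edgeR adjusted p = 0.517). Without non-stressed female libraries 1 and 4 the female values were -0.18 for Hnrnph2 and -0.14 for Hnrnph1, neither called. The male call of Hnrnph2 was lost without chronic-stressed male library 2 or 4 or non-stressed male library 1, and the female fold change of Hnrnpf was -0.30 without non-stressed libraries 1 and 4. Hnrnph3 overlaps Rufy2 on the opposite strand, which had a mean of 10.3 FPKM in chronic-stressed males and 9.56 FPKM in non-stressed males, and of 10.5 FPKM in chronic-stressed females and 8.59 FPKM in non-stressed females.

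Hnrnpc (which binds uridine tracts and packages nascent transcripts) fell in both sexes, with a log2 fold change of -0.41 ± 0.12 in males (SE; edgeR adjusted p = 0.0116) and -0.52 ± 0.12 in females (adjusted p = 0.00211); the female value was -0.20 without non-stressed libraries 1 and 4. Hnrnpdl was at -0.24 ± 0.09 in males and -0.26 ± 0.09 in females (adjusted p = 0.0401 and 0.0251). Its male call was lost in 10 of 16 fits that left out 1 library, among them any 1 chronic-stressed male library, non-stressed male library 1, 2 or 4, chronic-stressed female library 2 or 3 and non-stressed female library 3. Its female call was lost without chronic-stressed library 3 or 4 or non-stressed library 1 or 4, the last giving -0.17. Hnrnpk (which binds runs of C) and Hnrnpm (which binds GU-rich sites) were called in females alone, with -0.31 ± 0.11 and -0.30 ± 0.09. Without non-stressed female library 4 these were -0.17 and -0.19, and Hnrnpk also lost its call without non-stressed library 1 or chronic-stressed female library 2, 3 or 4. Hnrnpr (a partner of SMN in motor axons) was at -0.24 ± 0.07 in females (adjusted p = 0.0138) and changed sign on the TPM scale.

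At the other end of the family stood the large hnRNP U proteins. Hnrnpu (SAF-A, a scaffold of chromatin and nuclear RNA) had 53.3, 50.9, 50.1 and 48.3 FPKM in chronic-stressed males, against 53.3, 44.9, 46.8 and 48.3 in non-stressed males. In chronic-stressed females it had 54.05, 51.5, 50.4 and 49.4 FPKM, against 51.7, 44.6, 50.3 and 52.2 in non-stressed females. The ranges overlapped in both sexes (edgeR adjusted p = 0.4001 and 0.64). Hnrnpul1 had 11.7, 12.3, 12.2 and 11.4 FPKM in chronic-stressed males, against 9.59, 10.4, 12.1 and 11.6 in non-stressed males. Chronic-stressed females had 10.9, 11.2, 11.5 and 11.2 FPKM of it, against 8.23, 11.5, 11.3 and 6.19 in non-stressed females, where libraries 1 and 4 were the lowest. It was not called (adjusted p = 0.441 in males and 0.123 in females, edgeR). Hnrnpul2 had 34.1, 33.4, 35.2 and 33.9 FPKM in chronic-stressed males, against 32.2, 29.4, 30.7 and 33.6 in non-stressed males. Its values were 33.96, 35.9, 34.9 and 35.03 FPKM in chronic-stressed females, against 33.6, 31.6, 40.9 and 29.1 in non-stressed females. These overlapped as well (adjusted p = 0.227 and 0.667, edgeR). On the TPM scale Hnrnpu was at 0.31 in males and 0.30 in females (log2 fold change, limma). Hnrnpul2 was at 0.36 and 0.31 there, and these were all called, while Hnrnpul1 was called in females alone (0.55). Over all fits the lowest values of Hnrnpu were -0.28 in males and -0.36 in females. Those of Hnrnpul1 were -0.13 and -0.06, and those of Hnrnpul2 -0.09 and -0.21. With the length trend removed 0 of 20 hnRNP genes were called higher, and 11 were called lower in males and 18 in females. Hnrnpd (AUF1, a factor of AU-rich mRNA decay) and Hnrnpl (which binds CA repeats) were called in neither sex, with adjusted p of 0.532 and 0.619 in males and 0.0796 and 0.5899 in females.

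The SF3 subunits moved in both directions. Sf3b1 (the scaffold of SF3B that grips the branch helix; ENSMUSG00000025982, GRCm39 chr1:55024328-55066640, - strand) had 31.9, 31.5, 29.5 and 29.2 FPKM in chronic-stressed males, against 26.1, 20.4, 19.7 and 21.7 in non-stressed males. Chronic-stressed females had 32.05, 30, 30.8 and 28.8 FPKM, against 23.9, 20.7, 23.2 and 22.7 in non-stressed females. The groups did not overlap in either sex. The log2 fold change was 0.49 ± 0.08 in males (SE; edgeR adjusted p = 1.90e-04) and 0.42 ± 0.08 in females (adjusted p = 5.22e-04). Sf3b1 has 11370 bases of exon, and with the length trend removed it was 0.14 in males and 0.03 in females, which was not called.

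Sf3a1 (the SF3A subunit that contacts the U1 snRNP) had 11.1, 11.2, 11.4 and 11 FPKM in chronic-stressed males, against 8.1, 8.44, 8.35 and 9 in non-stressed males, without overlap. In chronic-stressed females it had 10.2, 11.3, 11.02 and 10.99 FPKM, against 7.09, 10.1, 10.5 and 6.3 in non-stressed females, which overlapped. It rose by 0.41 ± 0.12 on the log2 scale in males (SE; edgeR adjusted p = 0.0113) and 0.36 ± 0.12 in females (adjusted p = 0.02002). The female call was lost without non-stressed library 1 or 4, and without both the value was 0.11 (adjusted p = 0.211). With the length trend removed Sf3a1 was 0.28 in males, still called, and 0.21 in females, not called.

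Sf3b3 (a propeller-domain subunit that is also found in the SAGA coactivator) had 9.68, 9.83, 10.1 and 9.58 FPKM in chronic-stressed males, against 8.46, 7.87, 8.1 and 8.57 in non-stressed males. Chronic-stressed females had 9.62, 9.54, 9.92 and 9.58 FPKM, against 7.6, 8.18, 9.28 and 6.67 in non-stressed females. The groups did not overlap, and the log2 fold change was 0.26 ± 0.08 in males (SE; edgeR adjusted p = 0.0137) and 0.28 ± 0.08 in females (adjusted p = 0.00641). Its sign turned with the length trend removed, to -0.08 in males and -0.08 in females, and with length and GC trends removed it was called lower in females (-0.13, edgeR adjusted p = 0.0425). Without non-stressed female libraries 1 and 4 it was 0.18 in females.

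Sf3b6 (p14, the small subunit that meets the branch adenosine; ENSMUSG00000037361, GRCm39 chr12:4867544-4877659, + strand) had the lowest male log2 fold change of the SF3 genes. It had 12.4, 12.01, 10.5 and 10.99 FPKM in chronic-stressed males, against 23.2, 20.6, 18.4 and 16.1 in non-stressed males. Chronic-stressed females had 12.6, 12.2, 11.9 and 11.3 FPKM, against 24.8, 16.5, 14.3 and 28.1 in non-stressed females. Stressed and non-stressed libraries did not overlap. The log2 fold change was -0.76 ± 0.17 in males (SE; edgeR adjusted p = 0.00219) and -0.81 ± 0.17 in females (adjusted p = 0.00107). The female value was -0.33, still called, without non-stressed libraries 1 and 4.

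Sf3b5 (SF3b10, a small subunit that packs against Sf3b3 in the complex) also fell. Its values were 5.98, 4.96, 5.79 and 5.77 FPKM in chronic-stressed males, against 7.9, 8.73, 8.68 and 7.66 in non-stressed males. In chronic-stressed females they were 5.31, 6.28, 5.85 and 5.91 FPKM, against 11.3, 8.23, 6.36 and 16.1 in non-stressed females. The groups did not overlap, though the female ranges nearly met at 6.28 and 6.36 FPKM. The log2 fold change was -0.54 ± 0.20 in males (SE; edgeR adjusted p = 0.0397), a call lost on leaving out any 1 of the 8 male libraries. In females it was -0.85 ± 0.20 (adjusted p = 0.00224), -0.55 without non-stressed library 4 and -0.29 without libraries 1 and 4.

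Sf3a3 (an SF3A subunit with a zinc finger) was called in females alone. It had 11.6, 11.2, 10.2 and 10.9 FPKM in chronic-stressed females, against 14.5, 12.9, 12.01 and 17.4 in non-stressed females, without overlap (log2 fold change -0.38 ± 0.10, SE; edgeR adjusted p = 0.00617). This was -0.25 without non-stressed library 4. In chronic-stressed males it had 11.2, 11.7, 11.1 and 11.2 FPKM, against 12.5, 12.7, 10.9 and 11.1 in non-stressed males, with overlap (edgeR adjusted p = 0.713). On the TPM scale Sf3a3 was called higher in males (0.18), beside a median of 0.19 over all genes.

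Sf3b2 (which pairs with Sf3b4) had the highest FPKM of the SF3 genes and was called in neither sex. It had 35.3, 36.05, 36.8 and 35.2 FPKM in chronic-stressed males, against 33.7, 34.96, 34.1 and 35.8 in non-stressed males (edgeR adjusted p = 0.465). Chronic-stressed females had 33.9, 36.9, 36.5 and 35.9 FPKM, against 35.7, 35.1, 33.7 and 38.6 in non-stressed females (edgeR adjusted p = 0.958). The values overlapped. On the TPM scale Sf3b2 was called higher in both sexes, at 0.29 in males and 0.25 in females, beside medians of 0.19 and 0.22 over all genes. Over all fits its lowest value was -0.13 in males and -0.29 in females. Sf3a2 and Sf3b4 were not called either, and non-stressed female library 4 was their lowest library, at 3.28 FPKM of Sf3a2 and 7.76 FPKM of Sf3b4; the other non-stressed females had 5.77 to 10.2 and 11.2 to 17.1 FPKM.

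Summed over its members, each family took a different share of the library. SR genes took 0.148 ± 0.005% of counts in chronic-stressed males and 0.170 ± 0.017% in non-stressed males (SD, n = 4 each), and 0.150 ± 0.006% in chronic-stressed females and 0.188 ± 0.025% in non-stressed females. The hnRNP genes took 0.364 ± 0.008% in chronic-stressed males and 0.409 ± 0.028% in non-stressed males, and 0.365 ± 0.010% in chronic-stressed females and 0.437 ± 0.043% in non-stressed females. SF3 genes took 0.0900 ± 0.0016% in chronic-stressed males and 0.0806 ± 0.0032% in non-stressed males, and 0.0898 ± 0.0013% in chronic-stressed females and 0.0827 ± 0.0020% in non-stressed females. The shares did not overlap between conditions in any of these 6 pairs. A share of counts weighs genes with much exonic sequence and high FPKM most, so it does not stand for each member. Sf3b1, with 11370 bases of exon, had a mean of 30.5 FPKM in chronic-stressed males against 22.0 in non-stressed males. In females it had 30.4 against 22.6, while 2 SF3 genes fell in males and 3 in females. Srsf5 had 75.9 against 122 FPKM in males and 78.2 against 134 in females. As shares of summed TPM, SR genes took 0.125% in chronic-stressed males and 0.125% in non-stressed males, hnRNP genes took 0.231% in chronic-stressed males and 0.232% in non-stressed males, and SF3 genes took 0.0517% in chronic-stressed males and 0.0443% in non-stressed males. In chronic-stressed females the TPM share was 0.128% for SR genes, 0.232% for hnRNP genes and 0.0517% for SF3 genes, against 0.137%, 0.246% and 0.0450% in non-stressed females. The lower SR and hnRNP shares of stressed mice thus depend on the scale, with a difference close to 0 in males and smaller in females.

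**Figure D4:**
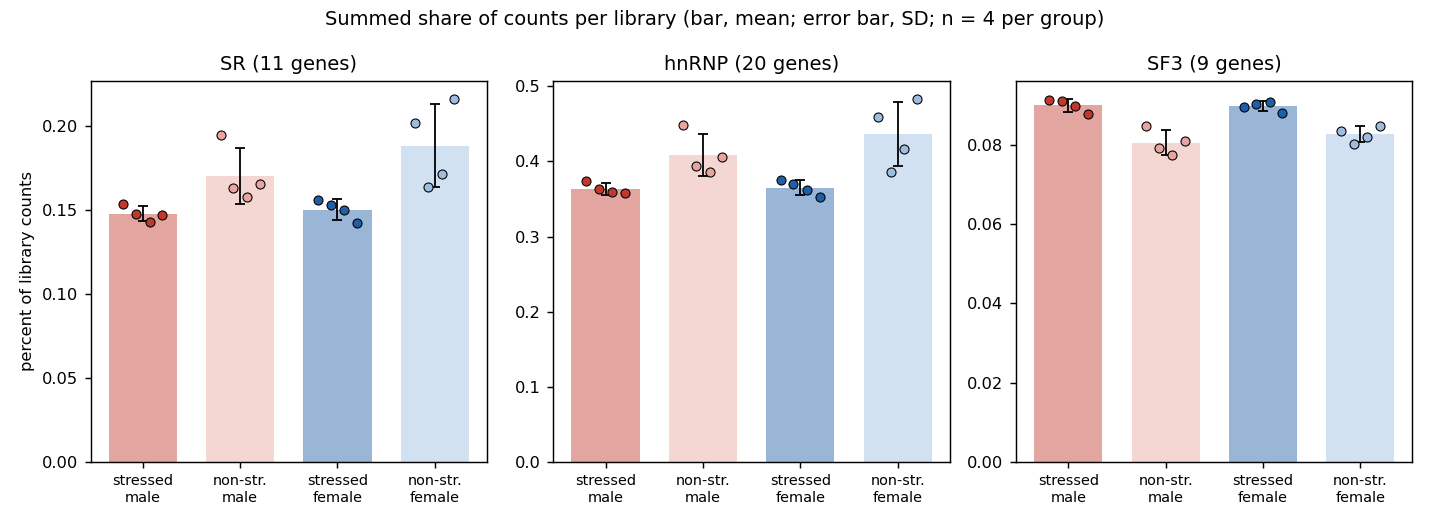
Percent of library counts taken by the SR, hnRNP and SF3 genes in each library (points), with mean (bar) and SD (error bar), n = 4 per group. Stressed libraries lie below non-stressed ones for SR and hnRNP genes and above them for SF3 genes; non-stressed female libraries 1 and 4 have the highest SR shares, 0.202 and 0.216%.

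Exonic length went with the direction of change. Across the 40 genes Pearson's r between log2 exonic length and log2 fold change was 0.37 in males and 0.27 in females (Spearman 0.61 and 0.46). This is a description over genes that share libraries. Over all 17569 genes Pearson's r was 0.19 and 0.18, and Spearman's was 0.44 in males and 0.42 in females. The 15 members with 2 to 4 kb of exon had a median log2 fold change of -0.35 in males against -0.16 for all genes of that length, and the 16 members over 6 kb had 0.00 against 0.25. In females these medians were -0.47 against -0.18 and -0.10 against 0.28. With the length trend of each library removed, 2 genes rose and 13 fell in males, and 1 rose and 26 fell in females. Over all genes 14% rose and 13.9% fell in males in that fit, and 16.2% rose and 20.5% fell in females. Hnrnpr, the member with most exonic sequence (22199 bases), then had -0.73 in males and -0.85 in females.

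**Figure D5:**
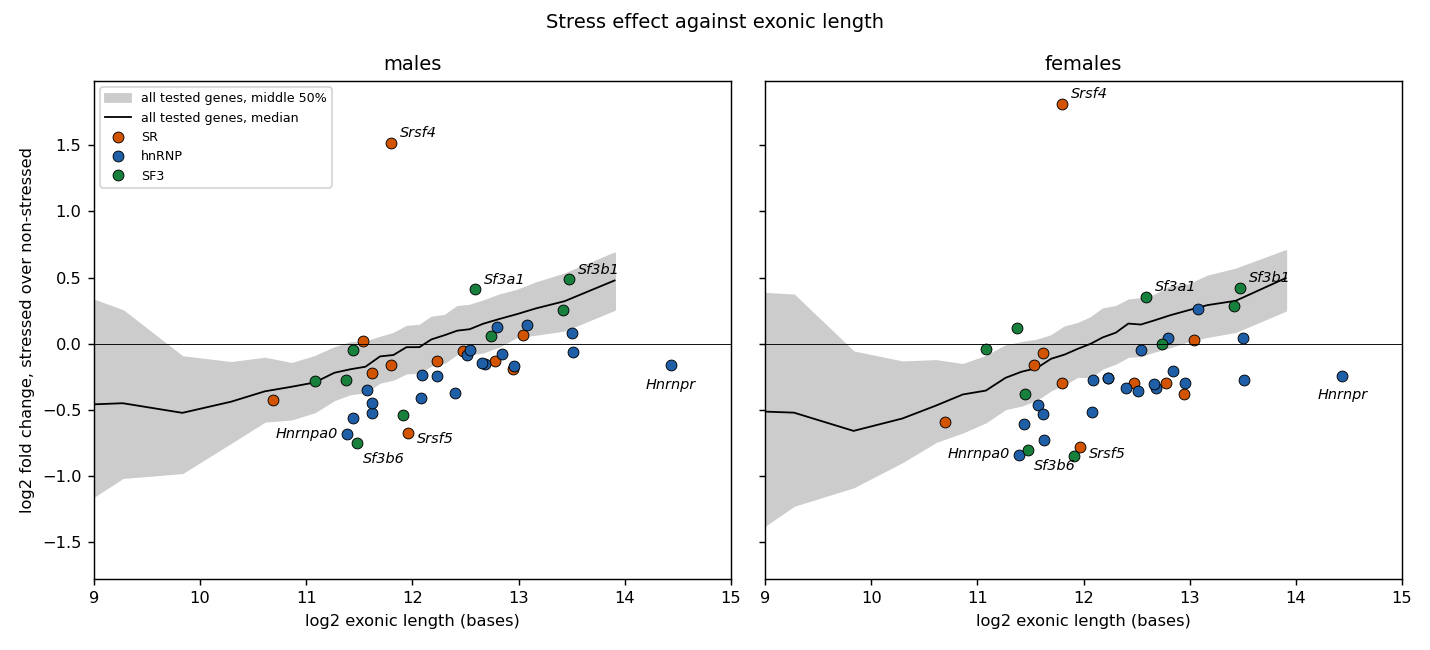
Log2 fold change of stressed over non-stressed libraries against log2 exonic length in bases, for the 40 genes by family (points) and all tested genes (line, median of 25 equal bins; band, middle 50%). The median of all genes goes up with length, Srsf4 lies far above it, and most SR and hnRNP points lie below it in both sexes.

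Opposite-strand genes overlap 16 of the 40 members (40%), beside 43.0% of all tested genes, and lie within 5 kb of 32 (80%), beside 66.3%. Whether counting used strand is not stated, so reads of a member and of an overlapping opposite-strand gene may not be separable. Beside Srsf4, the opposite-strand gene Gm12992 had 0.32 to 0.4 FPKM in chronic-stressed males against 0.14 to 0.3 in non-stressed males, and 0.3 to 0.42 FPKM in chronic-stressed females against 0.05 to 0.14 in non-stressed females. It too was higher in every stressed library than in every non-stressed one of its sex, at a level far below that of Srsf4. Of the 8 members with no opposite-strand gene within 5 kb, a fit on such genes alone called 1 higher (Sf3b1) and 5 lower (Hnrnpa0, Hnrnpa3, Sf3b5, Sf3b6 and Srsf12) in males, where 18.4% of its 5927 genes were higher and 17.2% lower. In females it called Sf3b1 higher and 4 lower (Hnrnpa0, Hnrnpa3, Sf3b5 and Sf3b6), where 22.3% of all were higher and 22.4% lower.

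Females were compared with males within each condition. No member was called in non-stressed mice, where 0.0455% of all genes were (8 genes, edgeR), or in chronic-stressed mice, where 0.0398% were (7 genes). At an unadjusted p under 0.05, 4 members differed in non-stressed mice and 0 in chronic-stressed mice. The difference between the female and the male stress effect was called for 0 members and for 0% of all genes, with 1 member at an unadjusted p under 0.05. DESeq2 and limma also called 0 members in each of these. The smallest p belonged to Sf3a3 in non-stressed mice, with 14.5, 12.9, 12.01 and 17.4 FPKM in females against 12.5, 12.7, 10.9 and 11.1 in males (log2 fold change of females over males 0.28 ± 0.10, SE; edgeR adjusted p = 0.651). It also had the smallest p for the interaction (-0.33 ± 0.14, SE; edgeR adjusted p = 1.00). In chronic-stressed mice it belonged to Hnrnpll (a relative of Hnrnpl known for CD45 splicing in T cells), with 5.64, 5.25, 5.11 and 5.29 FPKM in females against 6.12, 5.49, 5.52 and 5.51 in males (-0.10 ± 0.09, SE; edgeR adjusted p = 1.00). Leaving out 1 library moved these values: without non-stressed female library 4 Sf3a3 was at 0.15 in non-stressed mice and -0.20 for the interaction, and without chronic-stressed male library 1 Hnrnpll was at -0.06. Members called for stress in 1 sex are thus not shown to differ between the sexes.

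Other parts of the splicing machinery were read from lists of related genes, to be set beside the median of -0.03 over all genes in each sex and the shares of all genes called, 18.5% higher and 21.2% lower in males and 22.1% higher and 27.3% lower in females. With the length trend removed these shares were 14% and 13.9% in males and 16.2% and 20.5% in females. Counts of a list near these shares are no more than the background. The Sm and LSm proteins, which form the rings around the snRNAs, had 0 of 16 genes higher and 11 lower in males, and 0 higher and 15 lower in females. Their median log2 fold change was -0.51 in males and -0.68 in females. With the length trend removed 1 was higher and 6 lower in males (median -0.24), and 0 higher and 10 lower in females (-0.45); without non-stressed female libraries 1 and 4, 9 were lower in females (-0.34). Snrpf (-0.92 ± 0.14 in males, -0.92 ± 0.14 in females) and Snrpd2 (-0.80 ± 0.13 and -0.87 ± 0.13) are among those that fell. Of 21 U1 and U2 snRNP and branch site genes, 4 rose and 6 fell in males, and 5 rose and 9 fell in females. Snrpc and Snrpa, proteins of the U1 snRNP, fell (-0.89 ± 0.12 and -0.58 ± 0.08 in males, -1.09 ± 0.12 and -0.52 ± 0.08 in females), as did U2af2, which binds the polypyrimidine tract (-0.28 ± 0.06 and -0.31 ± 0.06).

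In the tri-snRNP and helicase list, 2 of 27 rose and 5 fell in males, and 5 rose and 8 fell in females. The large proteins Snrnp200 (0.59 ± 0.09 in males, 0.62 ± 0.09 in females) and Prpf8 (0.52 ± 0.17 and 0.71 ± 0.17), the helicase and the core of the U5 snRNP, rose, and the small Snrnp27 fell (-1.05 ± 0.14 and -1.06 ± 0.14). Of 10 minor spliceosome genes 2 rose and 3 fell in males, and 2 rose and 6 fell in females, Rnpc3 being higher (0.43 ± 0.12 and 0.47 ± 0.12) and Snrnp35 lower (-0.50 ± 0.12 and -0.63 ± 0.12).

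Of 13 kinases and importers of SR proteins 6 rose and 2 fell in each sex, with medians of 0.24 in males and 0.15 in females, but with the length trend removed the medians were -0.13 and -0.09, and 2 rose and 3 fell in males and 2 rose and 5 fell in females. Dyrk1a (0.43 ± 0.07 in males, 0.32 ± 0.07 in females) and Srpk2 (0.30 ± 0.07 and 0.27 ± 0.07), kinases that phosphorylate SR proteins, rose, and Ppp1r8, a regulator of nuclear phosphatase PP1, fell (-0.33 ± 0.08 and -0.43 ± 0.08). Of 26 SR-related genes 8 rose and 5 fell in males, and 10 rose and 6 fell in females. With the length trend removed 4 rose and 9 fell in males, and 5 rose and 11 fell in females. The named genes of this list follow with TMM scaling. Nktr (1.92 ± 0.38 and 2.09 ± 0.38) and Son, a speckle scaffold (0.60 ± 0.07 and 0.56 ± 0.07), rose, while Tra2b, a partner of SR proteins on exonic enhancers, fell (-0.51 ± 0.10 and -0.67 ± 0.10). Nktr, Son and Srpk2 each overlap a gene on the opposite strand, as do Snrpa, Snrpf, Celf4 and Smg1 of the other lists, and the sign of Srpk2 turned with the length trend removed, to -0.12 in males and -0.18 in females.

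Among 28 tested regulators of neuronal and tissue splicing, 3 rose and 2 fell in males, and 4 rose and 5 fell in females. With the length trend removed 1 rose and 13 fell in males (median -0.28), and 1 rose and 17 fell in females (-0.31). Over all genes 13.9% fell in males and 20.5% in females in that fit. With TMM scaling alone Celf1 rose (0.76 ± 0.09 in males, 0.71 ± 0.09 in females) and Celf4 fell (-0.60 ± 0.11 and -0.68 ± 0.11). Of 24 TDP-43 and other hnRNP-like genes 5 rose and 8 fell in males, and 3 rose and 7 fell in females. Sfpq, a paraspeckle protein, rose (0.81 ± 0.11 and 0.39 ± 0.11), and Taf15, an RNA-binding protein with a prion-like domain, fell (-0.50 ± 0.08 and -0.70 ± 0.08). Of 16 exon junction and nonsense-mediated decay genes 2 rose and 5 fell in males, and 5 rose and 5 fell in females. Smg1, the kinase of the decay factor Upf1, rose (0.91 ± 0.13 in males, 0.95 ± 0.13 in females), and Upf3a fell (-0.52 ± 0.12 and -0.65 ± 0.12). The male call of Prpf8 was lost without non-stressed male library 1. With the length trend removed Son was at 0.16 in males and 0.09 in females and Snrnp35 at -0.06 and -0.18, with no call in either sex. The male calls of Prpf8, Ppp1r8, Rnpc3 and Srpk2 and the female calls of Dyrk1a, Sfpq and Srpk2 were lost in that fit too, and on TPM those of U2af2 in both sexes and Ppp1r8 in males. All values in these lists are log2 fold changes ± SE from the edgeR fit over 17569 genes, and each gene named passed in both sexes.

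The split of these lists also moved with the scale, and the TPM counts are to be set beside the 34.7% of all genes higher and 11.4% lower in males and the 40.7% higher and 14.5% lower in females. On TPM 0 of the 16 Sm and LSm genes were higher and 6 lower in males, and 0 and 12 in females, while the kinases and importers had 8 higher and 0 lower in males and 8 and 1 in females. The U1 and U2 list had 6 higher and 3 lower in males and 10 and 4 in females, the tri-snRNP and helicase list 11 and 1 in males and 14 and 2 in females, and the SR-related list 12 and 1 in males and 14 and 1 in females. Neuronal and tissue regulators had 8 higher and 1 lower in males and 12 and 3 in females, hnRNP-like genes 12 and 3 in males and 12 and 4 in females, minor spliceosome genes 2 and 2 in males and 2 and 4 in females, and exon junction and decay genes 7 and 4 in males and 9 and 5 in females. The Sm and LSm list is the one of these 9 with no gene called higher on TPM in either sex, and its median was also below that of all genes there, at -0.27 in males and -0.39 in females.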

How the data were processed

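The authors deposited 1 table with raw counts for each gene in each library, and FPKM, which equals counts over exonic length and library total to within 0.00500. Per the submitters' processing notes, HISAT2 2.0.1 and HTSeq 0.6.1 were used with GRCm39; annotation release and strand setting are not given in the sources used here. Symbols, coordinates and exonic lengths are the table's. The counts were tested with edgeR 4.0.16 (quasi-likelihood, TMM, 4 group means over 16 libraries) in R 4.3.3 on the 17569 genes that reached 0.5 FPKM in 4 or more libraries, with Benjamini-Hochberg adjustment and a threshold of 0.05; the fit was tested on simulated data. Log2 fold changes with SE, shares in percent of counts, and TPM were computed here from the deposited counts and FPKM. Alternatives used DESeq2 1.42.0, limma 3.58.1 on log2 values, other filters and scalings, natural splines (5 degrees of freedom) on log2 length and on GC, thinned counts, and each library left out; exonic length came from the deposited table and GC from GENCODE transcripts matched by gene ID. Chi-square tests of counts between libraries of a group all exceeded sampling noise (2.79 or more per degree of freedom), so no library was merged with another. Equal replicate numbers did not pair libraries, so they were not used as a block.

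Members and lists were chosen with earlier results of these data known. Per-library FPKM is given for the 3 highest and 3 lowest mean stress effects and the highest mean FPKM of each family, and for the smallest p of each sex comparison and of the interaction; related genes are up to 3 each way per list, by male p among those called in both sexes with 1 sign, here a part of them. Genes with opposite-strand neighbours were found by coordinates within 5 kb. Promoter windows came from a RefSeq table (GRCm38.p6) by symbol.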

Additional observations from a re-analysis of the deposited data

Results flagged for a closer look

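In 96 groups of 4 values (21 members and 3 family shares in 4 groups), 4 held a library far from the other 3 by Dixon's criterion at its 95% level, about as many as the 1 in 20 that chance gives. Hnrnpa0 was low in non-stressed male library 2, at 46.5 FPKM, and Hnrnpab was low in non-stressed male library 3, at 50.3 FPKM. Hnrnpa1 was high in chronic-stressed male library 2, at 38.7 FPKM, and Hnrnpll was high in chronic-stressed male library 1, at 6.12 FPKM. Leaving out the library in question left the male calls of Hnrnpa0, Hnrnpa1 and Hnrnpab in place; Hnrnpll was not called in males.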

How the results depend on the processing

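Counts of members called (higher, lower) were 4 and 14 in males and 4 and 23 in females. They were 10 and 7 (males) and 10 and 10 (females) on TPM, 2 and 13, 1 and 26 with the length trend removed, 2 and 17, 1 and 29 with length and GC trends removed (added after the data were seen), and 1 and 5, 1 and 4 on the 8 members without opposite-strand neighbours, where fewer genes were tested. Of all 17357 genes in the fit with length and GC trends removed, 2817 rose and 2751 fell in males, and 3124 rose and 3858 fell in females. Falls of members in females numbered 15 with no filter, 15 with the compared groups alone and 12 without non-stressed female libraries 1 and 4. With a replicate block, replicate numbers being no pairing, they were 4 and 14, 4 and 24. Of 181 tested genes in the related lists, 32 rose and 47 fell in males, and 40 rose and 63 fell in females. Of all genes 18.5% rose and 21.2% fell in males, and 22.1% and 27.3% in females, so the rises were near the background. On TPM 66 rose and 21 fell in males, and 81 and 36 in females. With the length trend removed 16 rose in males and 21 in females, and with length and GC 20 and 26. Of the 53 without opposite-strand neighbours, 13 rose and 11 fell in males, and 14 and 16 in females. In males 50 rose without non-stressed female libraries 1 and 4. In females 26 rose with the compared groups alone. For the lost calls not explained by fewer genes or libraries, the cause was not tested. Signs turned for Sf3b3 with the length trend removed (-0.078 in males, -0.081 in females) and with length and GC (-0.11 and -0.13, the female value called lower), and on TPM for Srsf12 in males (0.0081) and for Hnrnpdl (0.0056), Hnrnpr (0.016) and Srsf6 (0.0054) in females. Among the related genes named, signs turned with the length trend removed for Srpk2 (-0.12 in males, -0.18 in females) and with length and GC for Srpk2 (-0.060 and -0.078). The stressed minus non-stressed share of summed TPM was 0.000708 points for SR genes in males and -0.00896 in females, and -0.00129 and -0.0147 for hnRNP genes; in counts it was -0.0225, -0.0381, -0.0450 and -0.0714. Leaving out 1 library at a time gave shares from -0.0266 to -0.0144 and -0.0462 to -0.0289 (SR, males and females), -0.0525 to -0.0317 and -0.0880 to -0.0559 (hnRNP), and 0.00837 to 0.0108 (SF3, males). Members called ranged from 4 to 5 higher and 10 to 16 lower in males, and from 3 to 6 and 17 to 26 in females. DESeq2, limma on FPKM with 3 pseudocounts and library totals left all 45 calls of members for stress in place.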
